A study of Mus musculus with 20 samples.

Results

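Cd28, Ctla4 and Icos stand side by side on mouse chromosome 1 and encode related receptors that tune T cell activation. The members described here are the ChIP-seq regions of the deposited lists whose centre is nearest to 1 of these 3 protein-coding genes, at distance 0 inside the gene and at most 100 kb away. There are 16 of them among 22081 distinct regions of the series: 5 at Cd28, 6 at Ctla4 and 5 at Icos. No measured value entered the assignment of regions to genes beyond a region's presence in the lists. The genes themselves were chosen with earlier results of these data known.

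CD28 gives the co-stimulatory signal that a T cell needs beside its antigen receptor, through the ligands CD80 and CD86. CTLA-4 binds the same ligands more tightly, withholds them from CD28 and is used by regulatory T cells (Treg) to restrain other T cells. ICOS binds its own ligand and supports effector and regulatory T cells after activation. Foxp3 is the transcription factor that defines Treg cells, and Bcl11b is a zinc-finger protein that sets and keeps T cell identity.

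The series mapped Bcl11b and Foxp3 by chromatin immunoprecipitation in CD4+ cells sorted from spleen and draining lymph nodes of C57BL/6 mice, in 20 samples of 9 groups, 8 of which were input DNA. Wild-type (WT) Treg cells were CD4+YFP+ cells of Foxp3-IRES-YFP-Cre mice, with 3 Bcl11b and 2 Foxp3 samples. Cells labelled Tn carried the same genotype and the same sort label, with 3 Bcl11b samples, and the labels do not expand Tn. Bcl11b-KO Treg cells were CD4+YFP+ cells of Bcl11b f/f Foxp3-IRES-YFP-Cre mice, with 2 Foxp3 samples. The Cre is expressed from Foxp3, so deletion is directed to cells that express that gene. WT, Tn and Bcl11b-KO cells therefore share the YFP-Cre allele. KIKO cells, also named Tfn, were CD4+GFP+ cells of Foxp3-GFPKO mice, devoid of Foxp3, with 2 Bcl11b samples. They differ from WT Treg cells in the reporter as well as in Foxp3. The sources used here give neither the ages of the mice nor whether samples came from separate animals.

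Each of 4 comparisons has 3 lists, for regions specific to the first set, common, and specific to the second set. The lists are per group and hold positions only, without signal, replicate value or depth, so a class below is the authors' call and carries no error of its own. The labelled cell types could not be checked against expression markers here. "Lost" means listed as specific to WT Treg cells, "kept" means listed as common to WT and Bcl11b-KO Foxp3, and "shared" means listed as common to Bcl11b and Foxp3. The rule behind these classes is not stated, so it cannot be told from the lists whether a lost or specific region had no peak in the other set or a weaker one, nor whether a common region had a peak in each. Intervals are Wilson 95% intervals, treat regions of 1 locus as independent and cover counting error only. Positions are in mm10 and counted from 1.

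The 3 genes lie in 254 kb, between Raph1, 179 kb below Cd28, and Pard3b, 638 kb above Icos. The 16 regions span 60744417 to 60990658 of chromosome 1, which is 246 kb. Below them, no region was listed for 175 kb, down to a region next to Raph1 at 60569359 to 60569578. Above them, none was listed for 651 kb, up to a Bcl11b region in Pard3b at 61641809 to 61642006. Within the locus, the regions fell into 3 groups with 137 kb free of regions between those of Cd28 and Ctla4, and 61.0 kb between those of Ctla4 and Icos. The median gap between neighbouring members was 2.85 kb over 15 gaps, against 14.7 kb over the 22060 gaps of the whole series. A gene with at least 5 regions is uncommon in these lists, with 725 of 21900 protein-coding genes (3.31%), and at least 6 were found at 411 genes (1.88%).

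The region at the start of Ctla4 is shown first, because the reference used here held a promoter sequence for Ctla4 but none for Cd28 or Icos. It ran from 60908846 to 60909065, which is 179 bases before to 41 bases past the start of Ctla4 at 60909025. This region was listed as shared by Bcl11b and Foxp3 in WT Treg cells and as lost from Foxp3 in Bcl11b-KO Treg cells. Its listing for Bcl11b rests on the comparison with Foxp3 alone. The Tn and KIKO comparisons use the same WT Treg Bcl11b set and did not list it. The 250 bases before the start, from RefSeq on GRCm38.p6, plus strand, are given in capitals where the region covers them.

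Ctla4 promoter, chr1:60908775-60909024: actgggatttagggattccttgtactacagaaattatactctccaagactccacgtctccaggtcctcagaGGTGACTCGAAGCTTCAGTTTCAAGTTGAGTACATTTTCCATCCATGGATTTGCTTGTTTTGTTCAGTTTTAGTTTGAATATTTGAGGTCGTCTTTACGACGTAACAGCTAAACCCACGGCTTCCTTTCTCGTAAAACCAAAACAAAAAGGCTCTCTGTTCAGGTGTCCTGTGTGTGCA

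In the window of 300 bases, 250 before and 50 after the start, the letters TGTTTAC (forkhead), TGTGGT (Runx), CAGGAAGT (Ets) and TGANTCA (AP-1) were found on neither strand. Of 32851 promoter windows of this length, 3.65% hold the first, 16.8% the second, 3.33% the third and 7.81% the last. The shorter forkhead core TGTTT, chosen after the sequence was seen, stood at -124 to -120 on the plus strand and at -39 to -35 on the minus strand, both inside the region. It is found in 50.5% of windows. The NFAT core GGAAA, chosen likewise, stood at -144 to -140 on the minus strand, and 61.3% of windows hold it. These matches describe letters only. Promoter windows touched 5672 of all regions. Of the 5131 such regions on the WT side of the Bcl11b-KO comparison, 27.7% were lost, and of the 4800 on the Foxp3 side of the Bcl11b comparison, 41.5% were shared. The Ctla4 start region belongs to both minorities.

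**Figure D1:**
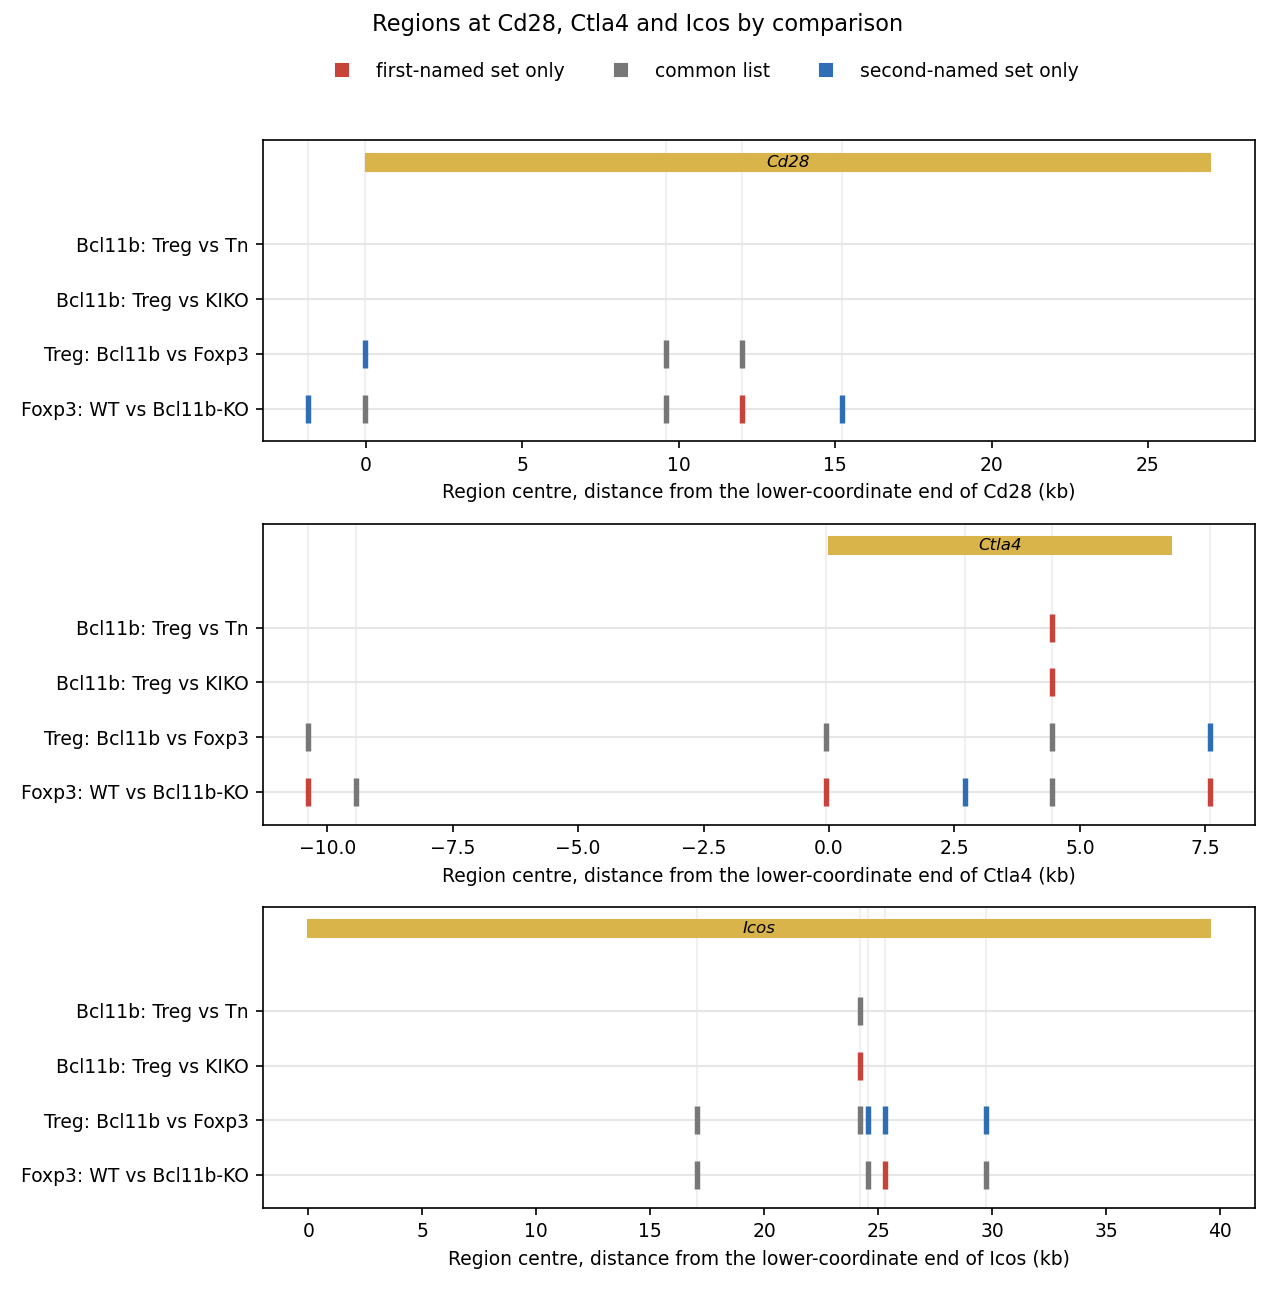
Each panel shows 1 gene as a yellow bar, with region centres placed by distance in kb from its lower-coordinate end. Rows are the 4 comparisons and colours the class in each. The Bcl11b rows against Tn and KIKO cells hold 1 region at Ctla4, 1 at Icos and none at Cd28, while the 2 rows with Foxp3 hold regions at all 3 genes.

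Ctla4, the inhibitory receptor, had the most regions for the shortest gene body, 6808 bp from 60909025 to 60915832. Just 2 of its 6 regions had their centre inside the gene. The region at 60913292 to 60913648, 4.45 kb past the start, was the only one of the 16 listed in all 4 comparisons. Bcl11b was Treg-specific there against Tn, lost in KIKO cells and shared with Foxp3, and Foxp3 was common to WT and Bcl11b-KO cells. Of all regions, 10.6% (2340) were listed in all 4 comparisons. This intragenic region thus differed from the start region in the Bcl11b-KO comparison, as Foxp3 was kept at the first and lost at the second.

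The other intragenic region of Ctla4, at 60911541 to 60911930 and 2.71 kb past the start, was specific to Foxp3 in Bcl11b-KO cells. At 390 bp it was the widest of the 16. The region at 60916501 to 60916720, 0.779 kb above the upper end, was Foxp3-only and lost without Bcl11b. A pair of regions lay about 10 kb below the start. The one at 60898537 to 60898756, 10.4 kb away, was shared and lost in Bcl11b-KO cells. Its neighbour at 60899455 to 60899730, 9.43 kb away, was common to WT and Bcl11b-KO Foxp3 and was not listed in the comparison of Bcl11b with Foxp3. The pair is 698 bp apart, and 1 of the 2 was listed as lost and the other as kept. The comparison of Bcl11b with Foxp3 also uses WT Foxp3, so the kept region rests on 1 comparison. It is 276 bp wide, the most common width of Bcl11b-KO Foxp3 regions. Whether WT Foxp3 had a peak there cannot be told. In the whole series, 1933 regions were likewise common to WT and Bcl11b-KO Foxp3 and not listed in that comparison. Both regions of the pair lie closer to the pseudogene Rpl18-ps1 than to Ctla4. Over the gene, 3 Foxp3 regions were lost, 2 were common and 1 was KO-specific.

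Cd28, the co-stimulatory receptor, extends from 60746388 to 60773359 and had no region in either the Tn or the KIKO comparison. The 290 bp region at 60746216 to 60746505 covers the lower end of the gene. Cd28 and Icos are known to be read in the same direction as Ctla4, so that end is the start of Cd28. Foxp3 was listed there without Bcl11b, and was common to WT and Bcl11b-KO cells. Foxp3 at the start of Cd28 was thus kept, whereas Foxp3 at the start of Ctla4 was lost. The region at 60744417 to 60744692, 1.83 kb below the gene, was specific to Bcl11b-KO cells.

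Inside Cd28, 3 regions followed each other within 6 kb, and each had another class in the Bcl11b-KO comparison. The first, at 60755846 to 60756121 and 9.60 kb from the lower end, was shared with Bcl11b and common. The second, at 60758318 to 60758537 and 12.04 kb from that end, was shared and lost. The third, at 60761487 to 60761762 and 15.2 kb from it, was KO-specific. Cd28 therefore carried 2 of the 3 KO-specific regions of the locus, beside 2 common ones and 1 lost.

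Icos, the inducible co-stimulator, extends from 60960773 to 61000322, and all 5 of its regions lay inside the gene, between 17.1 and 29.7 kb from its lower end. None touched an end of the gene, unlike the regions at the starts of Cd28 and Ctla4. The region at 60977690 to 60977965 was shared and common to WT and Bcl11b-KO Foxp3. The region at 60984882 to 60985079 was the only one of the 16 listed for Tn cells: Bcl11b there was common to Treg and Tn, lost in KIKO cells and shared with Foxp3. It was absent from the WT and Bcl11b-KO Foxp3 lists, as held for 557 of the 4738 shared regions of the series.

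The next Icos region, at 60985140 to 60985489, began 60 bp further on and was Foxp3-only and common to WT and Bcl11b-KO cells. Of all gaps between neighbouring regions in the series, 1.21% are that small or smaller. A region at 60985977 to 60986196, 487 bp beyond, was Foxp3-only and lost, and the last, at 60990319 to 60990658, was Foxp3-only and common. Icos thus had 1 lost, 3 common and no KO-specific Foxp3 regions. Its Bcl11b region and its nearest Foxp3-only region are distinct entries that almost touch, and matching lists within 500 bp would pair them.

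The comparison of Treg with Tn cells asks which Bcl11b regions are listed for cells labelled Treg, Tn or both. Both carry the same genotype and sort label, so the labels do not show how the cells differ. Only 2 of the 16 members were listed in this comparison, 1 Treg-specific at Ctla4 and 1 common at Icos. Over all 7243 regions of that comparison 28.0% were Treg-specific and 62.0% common, and of the Treg side alone 31.1% were Treg-specific. For KIKO cells the question is how Bcl11b regions are listed in cells without Foxp3, and the same 2 regions were both listed as lost, none as common or KIKO-specific. Over all 5713 regions 61.6% were lost, 37.2% common and 1.17% KIKO-specific. Both comparisons use the WT Treg Bcl11b set, so they are not independent of each other. With 2 regions, the interval of the share lost on the WT side is 34.2 to 100%, and the share over all regions on that side, 62.3%, lies within it. The Tn or KIKO lists held 2 of 16 members and 34.3% of all regions.

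Set side by side in WT Treg cells, the lists of Bcl11b and Foxp3 show where both factors were listed. They held 12 members, of which 7 were shared, 5 Foxp3-only and none Bcl11b-only. Over all 16747 regions 28.3% were shared, 56.8% Foxp3-only and 14.9% Bcl11b-only. By gene, 2 of 3 regions of Cd28, 3 of 4 of Ctla4 and 2 of 5 of Icos were shared. Of the 12 members on the Foxp3 side of this comparison, 58.3% (32.0 to 80.7) were shared with Bcl11b, against 33.2% of all 14250. That value lies inside the interval, so at this number of regions no difference can be claimed. None of the 7 Bcl11b members was without Foxp3 in these lists, and 34.5% of all Bcl11b regions were of that class. The Icos region at 60984882 is 1 of the 7, yet the comparison of WT with Bcl11b-KO Foxp3 did not list it. The Wilson interval of 0 of 7 reaches 35.4%, just above that share, and the limit of 3 counts that a count of 0 allows is 42.9%.

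Bcl11b rests on this comparison alone at 5 of the 7 shared members. Those 5 are both shared Cd28 regions, the Ctla4 regions at 60898537 and 60908846, and the Icos region at 60977690. The other 2 shared members were also Treg Bcl11b regions of the Tn or KIKO comparison, 28.6% of 7, against 62.5% of all 4738 shared regions. None of the 5 has the most common width of a Treg-specific Bcl11b region, 198 bp. That width is uncommon among shared regions of the series as well, at 405 of 4738 (8.55%).

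How Foxp3 regions differ in Treg cells without Bcl11b is the question of the last comparison. It listed 15 members, 5 lost, 7 common and 3 KO-specific. Over all 17673 regions 27.2% were lost, 59.7% common and 13.1% KO-specific. The 12 members on its WT side include the Ctla4 region at 60899455 in place of the Icos region at 60984882, and are otherwise the 12 of the comparison with Bcl11b. Of these, 41.7% (19.3 to 68.0) were lost, against 31.3% of all 15365. Of the 10 on the Bcl11b-KO side, 30.0% (10.8 to 60.3) were KO-specific, against 17.9% of all 12858. Both shares of the whole series lie within these intervals. Loss was listed for 3 of 6 shared and 2 of 5 Foxp3-only members, and for 30.6% of 4094 and 38.1% of 9293 such regions of the series.

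**Figure D2:**
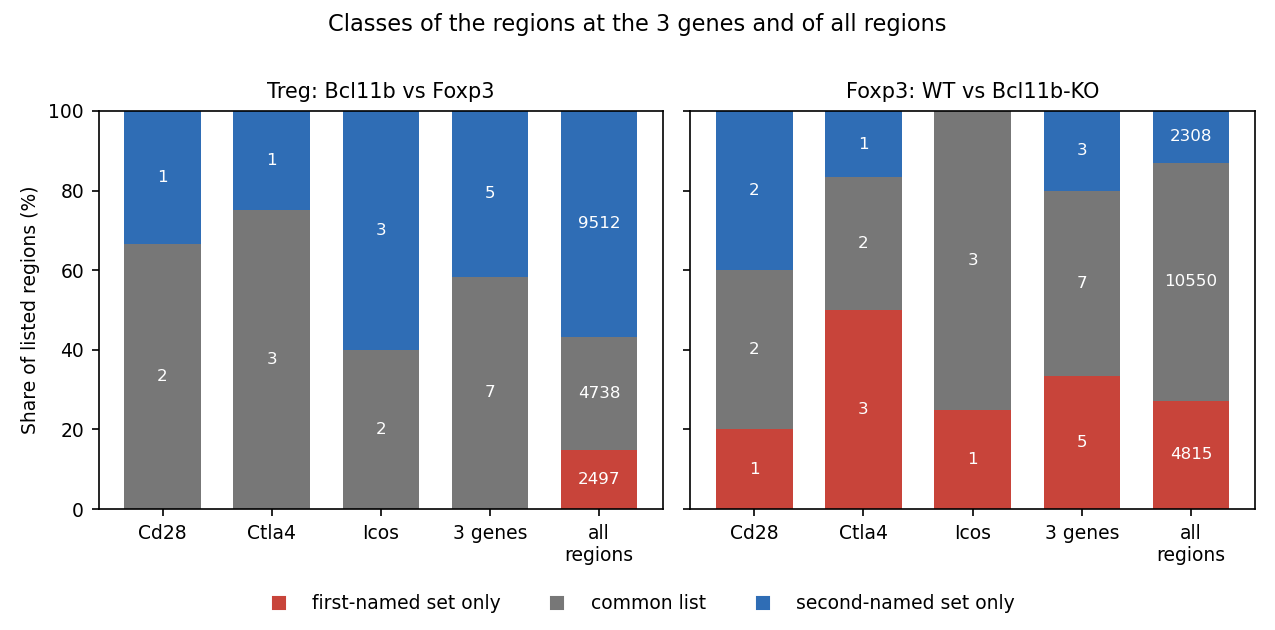
Bars give the share of listed regions in each class, in percent, at each gene, at the 3 genes together and over all regions, with the number of regions printed inside. In the left panel no region of the 3 genes is Bcl11b-only, and in the right panel Icos has no Bcl11b-KO-specific region while Ctla4 has 3 lost of 6.

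Lost Foxp3 regions lay among others at all 3 genes, and KO-specific ones did at Cd28 and Ctla4. Each of the 5 lost members lay 487 to 2852 bp from a region listed for Bcl11b-KO Foxp3, a median of 2.20 kb. Over all 4815 lost regions the median was 11.4 kb, and 26.5% had such a region within 3 kb. Each of the 3 KO-specific members lay 1361 to 2949 bp from a region listed for WT Foxp3, while 24.2% of all 2308 had one within 3 kb. The distance of 3 kb was chosen after these values were seen. Regions at this locus were also closer together in general, as the median gap of 2.85 kb shows, and the part of that in these distances was not tested. Within 1 kb, 2 of 5 lost and 0 of 3 KO-specific members had such a neighbour, beside 15.9% and 11.2% of all.

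Region width differed between the classes, in part because of how the most common widths were taken. The most common width of a set was taken here from a list of regions specific to it. For WT Foxp3 that was the Foxp3-only list, and for Bcl11b-KO Foxp3 the KO-specific list. The share of 276 bp among KO-specific regions is therefore no separate result. The share of 220 bp among lost regions is not fully separate either. The Foxp3-only list holds 3544 of the 4815 lost regions of the series and 2 of the 5 lost members. All 5 lost members were exactly 220 bp wide, the most common width of WT Foxp3 regions, whereas none of the 7 common members had that width. Over the series, 67.9% of lost and 23.6% of common regions were 220 bp wide. The most common width of Bcl11b-KO Foxp3 regions, 276 bp, was found at 2 of 3 KO-specific and 3 of 7 common members, beside 85.9% and 30.1% over the series. Of the 5 members with a width of 276 bp, 2 were listed as shared by Bcl11b and Foxp3 in WT Treg cells, at Cd28 and Icos, although Bcl11b-KO cells are no part of that comparison. The same held for 538 of all 4738 shared regions (11.4%). The remaining 5 members, from 290 to 390 bp, were wider than any of these most common widths, and none of them was lost. Of the 7 shared members, only the intragenic Ctla4 region at 60913292 was wider than 276 bp (14.3%), against 58.4% of all shared regions. What a width says about the strength of binding was not tested.

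**Figure D3:**
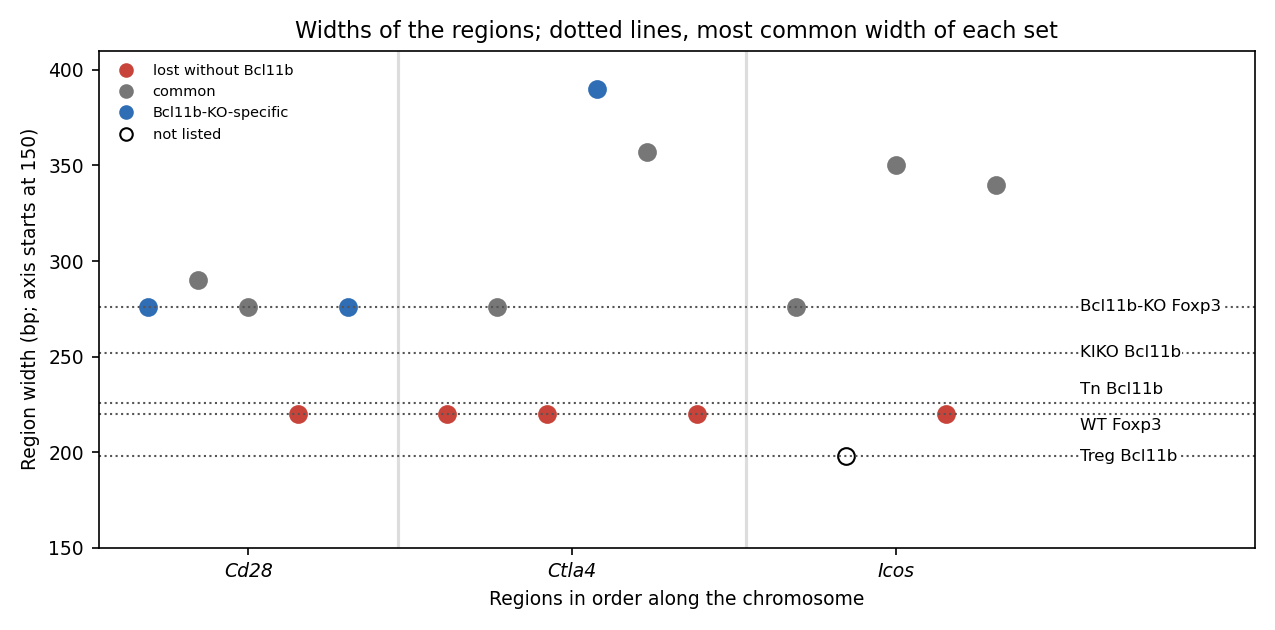
Points are the 16 regions in chromosome order, with width in bp on an axis that does not start at 0, and colour for the class of Foxp3 in WT against Bcl11b-KO cells. Dotted lines mark the most common width of each set, taken from a list of regions specific to it. The 5 lost regions lie on the WT Foxp3 line at 220 bp and the Icos region not listed in that comparison lies on the Treg Bcl11b line at 198 bp.

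The genes whose regions fell in the most similar classes were found by the Bray-Curtis similarity of their 12 class counts, over 2543 other genes with at least 3 regions, predicted genes with Gm, Rik or LOC names passed over. For Cd28 they were Klrb1b (0.94), Lrrc8c and N4bp2l2 (both 0.93). For Ctla4 they were Wbp1l (0.87), Ifne and Mnt, the last 2 among 3 genes tied at 0.86. For Icos they were Mapk6 and Phlda1 (both 0.96) and Mtarc2, among 4 tied at 0.95. Between the 3 genes of the locus, the similarity was 0.70 for Cd28 with Ctla4, 0.63 for Cd28 with Icos and 0.61 for Ctla4 with Icos. The genes named above are the best of 2543, so a fixed pair is likely to score lower. No conclusion is drawn from that difference, and the similarity of a typical pair is not given here.

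The other genes of the pathway were taken from a list of 35 receptors, ligands and signalling, trafficking and phosphatase genes. Of these, 34 had a region, against 50.3% of all protein-coding genes; Ptpn11 had none. Foxp3 regions lost without Bcl11b were found at 23 genes (65.7%), common ones at 28 (80.0%) and KO-specific ones at 13 (37.1%), beside 17.0%, 32.2% and 8.20% of all protein-coding genes. A gene with many regions enters several of these counts. Over regions, 41 of 103 (39.8%) on the WT Foxp3 side were lost, and 42 of 100 (42.0%) were shared with Bcl11b, beside 31.3% and 33.2% of all regions.

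Among receptors of the same family, Pdcd1, which encodes PD-1, had 7 Foxp3 regions in that comparison, 1 lost, 4 common and 2 KO-specific. Btla, another inhibitory receptor gene, had 2 lost and 1 common. Among ligands, Tnfrsf14, which encodes the partner of BTLA, had 3 lost, none common and 1 KO-specific. Icosl, which encodes the ligand of ICOS, had 4 common and none lost, and Cd80 had 1 lost and 1 common. Icosl and Cd80 are chiefly known from antigen-presenting cells, and these counts are of regions in sorted CD4+ cells.

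Among signalling genes, Pik3r1, which encodes a regulatory subunit of phosphoinositide 3-kinase, had 4 lost and 4 common regions. The adaptor gene Grap2 had 3 lost, 1 common and 3 KO-specific, and the adaptor gene Grb2 had 1 lost and 4 common. Pik3cd and Prkcq were tied with these adaptor genes at 8 regions each and came later by symbol. Prkcq had 6 lost, 1 common and 1 KO-specific, and Pik3cd had 0 lost, 4 common and 1 KO-specific. Among genes of turnover and trafficking, Def6 had 2 lost and 3 common, Trat1, which encodes a transmembrane adaptor, had 1 lost and 4 common, and Rc3h2, which encodes an RNA-binding protein related to roquin-1, had 1 of each. Of the phosphatase genes, Ppp2ca had 1 common and Ptpn6 2 common regions. For Ctla4 the count was 3 lost and 2 common. These counts are too small to rank the genes.

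**Figure D4:**
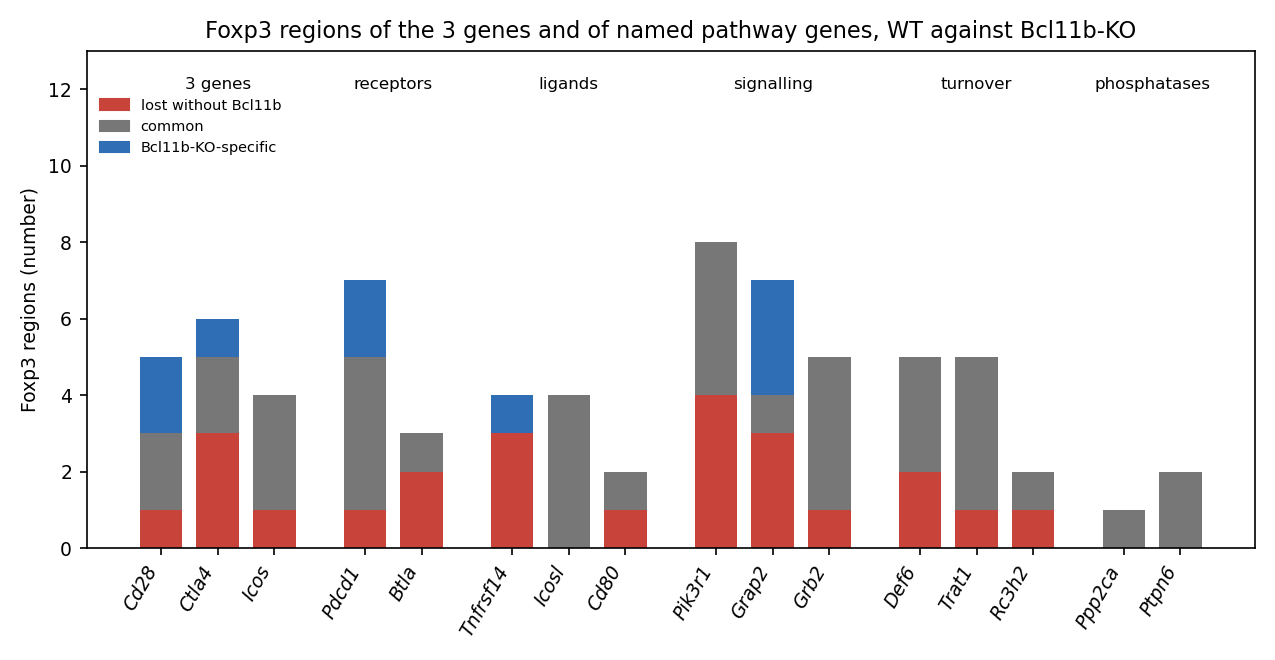
Bars give the number of Foxp3 regions at the 3 genes and at named pathway genes, by class in WT against Bcl11b-KO cells. Pik3cd and Prkcq are not shown. The 3 genes have 4 to 6 such regions each, and the pathway genes shown have 1 to 8.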

How the data were processed

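The authors deposited 12 lists of regions with 3 columns (chromosome, start, end) and no value of signal. The build was mm10, and the submitters' processing notes name HOMER 4.10.1, deepTools, HISAT2 2.1.0, SAMtools 1.3, Trim Galore 0.4.2, FastQC and cutadapt 1.12. No source used here gives their roles, the peak threshold, the rule for common and specific, or whether replicates were pooled. The description of 1 Treg Bcl11b sample names no list.

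Repeated rows were dropped, and 25 entries in 2 classes of 1 comparison left out of it; none is a member. Lists were joined by identical coordinates. Gene ends came from RefSeq GRCm38.p6, which has the coordinates of mm10. Distance ties went to the shorter gene. Depth is unknown, and no test was made, since the lists hold no replicates. Exons and UTRs were not used here. Named pathway genes have the most regions of each role (up to 3, ties by symbol), and Pik3cd and Prkcq are named beside them because of a tie. Members and lists were chosen with earlier results of these data known. The gene assignment was tested on simulated data. Alternatives changed the distance limit, gene set, gene body, width and matching. Python 3.11.15, pandas 2.3.3, numpy 2.4.6, scipy 1.17.1 and matplotlib 3.10.9 were used.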

Additional observations from a re-analysis of the deposited data

How the results depend on the processing

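Counts at the 3 genes held within 1.5 times, in total and in each class, with a 20 kb limit, with nearest gene ends, with all annotated genes competing (14 regions in total) and with gene bodies plus 10 kb (15 regions). Lists matched within 500 bp of edges gave 2 regions common to Treg and Tn in place of 1. The other 11 class counts stayed within 1.5 times, that limit included. Among them, regions lost in KIKO cells rose from 2 to 3, and regions common to WT and Bcl11b-KO Foxp3 from 7 to 8. With only the 5 regions wider than 276 bp, fewer remain by construction: 0 common with Tn, 1 lost in KIKO, 1 shared, 3 Foxp3-only, and for WT against Bcl11b-KO Foxp3 0 lost, 4 common and 1 KO-specific. The 5 losses of Foxp3 without Bcl11b thus all rest on regions of 220 bp. No paired analysis was possible because the lists are per group and carry no replicate. Leaving out a replicate could not be run for the same reason. Depth is unknown, and with 12 or fewer regions per share the intervals held the shares of the whole series.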
